A study of Schizosaccharomyces pombe with 2 samples.

Results

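In fission yeast (Schizosaccharomyces pombe), 561 of the 1522 annotated noncoding RNAs (ncRNAs), or 36.9%, shared at least 1 nt with an XUT on the same chromosome and strand, and are described here. XUTs, a class of long noncoding RNA, were defined by the study from total RNA of the same 2 strains, as transcripts that build up in cells without Exo2. The rule that selects the ncRNAs uses only the positions in the deposited table, not read values, and their partners were 581 of the 1638 XUTs (35.5%). Small RNAs of 10 to 40 nt were sequenced from exponentially growing cells of an exo2Δ strain (YAM2397) and of a WT strain (YAM2394), as single reads of 40 nt. Per the study's methods both strains were h+ and carried ade6-M210, ura4-D18 and leu1-32, and the mutant also carried exo2Δ::kanMX4. Only 1 library was made per strain, which leaves every value without replicates and the strains without a test.

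Exo2 is the fission yeast counterpart of Xrn1, the cytoplasmic exonuclease that degrades RNA from its 5′ end once the cap is removed. RNAs made in the antisense direction of genes are common in yeasts, and many are removed by this enzyme. Where antisense and sense RNAs pair, the duplex can be cut into small RNAs by Dicer in species that have RNA interference, as fission yeast does. A read in the size range sequenced here can equally come from the breakdown of any longer RNA. Neither origin was tested here for the ncRNAs. At antisense XUTs the study reported no enrichment of small RNAs, and where they overlap mRNAs no read size typical of Dicer. The annotated ncRNAs of fission yeast were catalogued from total or polyadenylated RNA, so an ncRNA and an XUT at one place can be 2 drawings of 1 transcript or partly different ones.

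The label was checked against the table. Of the 561 ncRNAs, 503 shared bases with 1 XUT, 49 with 2, 8 with 3 and 1 with 4. The share of an ncRNA that lay inside XUTs went from 1.23% to 100%, with a median of 76.5%. It was under 50% in 146 ncRNAs, 50% to under 100% in 384, and 100% in 31. The 31 fully covered ncRNAs each lay wholly inside an XUT. In 384 ncRNAs every partner XUT lay wholly inside the ncRNA, and in 146 the 2 features overlapped in part. In 5 ncRNAs both ends lay within 10 nt of those of an XUT. The 561 ncRNAs were 123 to 5317 nt long and formed 512 separate loci, 468 of the ncRNAs being alone in theirs. They were spread over chromosomes I (254 ncRNAs), II (205) and III (102). Of the 561, 414 (73.8%) shared at least 50 nt with an mRNA on the other strand, 63 shared bases with an mRNA on their own strand, and 2, SPNCRNA.659 and SPNCRNA.617, with snoRNA genes on their own strand.

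The sequences shown first are of small structured RNAs that lie within an ncRNA or within its XUT, since their reads are counted for the longer feature too. SPNCRNA.659 (snoZ) contains the genes of 5 small nucleolar RNAs, a family that guides chemical modification of ribosomal RNA, and its partner XUT1309 lies outside all 5. The sequences were read from the RefSeq genome ASM294v3 by gene name, where each gene has the ends that the deposited table gives. Capitals mark CTGA, the box D motif near the 3′ end of one class of these RNAs, where it lies in the last 15 nt.
snoZ8: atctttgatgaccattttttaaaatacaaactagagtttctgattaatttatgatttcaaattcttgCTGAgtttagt
snoZ7: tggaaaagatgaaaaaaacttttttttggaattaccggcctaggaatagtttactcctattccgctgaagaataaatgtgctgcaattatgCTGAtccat
snoZ5: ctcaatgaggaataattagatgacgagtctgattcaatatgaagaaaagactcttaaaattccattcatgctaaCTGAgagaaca
snoZ4: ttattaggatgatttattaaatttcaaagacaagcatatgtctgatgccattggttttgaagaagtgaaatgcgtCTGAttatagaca
snoZ3: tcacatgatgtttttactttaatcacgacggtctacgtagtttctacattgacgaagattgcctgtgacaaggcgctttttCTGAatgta

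They lie on the plus strand of chromosome I, from chrI:526726-526803 for snoZ8 to chrI:527624-527713 for snoZ3. All 5 held CTGA in their last 15 nt, as did 32 of the 57 snoRNA genes of the table that the reference names (56.1%, and 1.75% on their other strand). Of 9271 windows of 90 nt cut from the XUT-sharing ncRNAs, 3.60% held it there, and 3.68% on the other strand. The 5 snoRNAs make up 441 of the 1901 nt of SPNCRNA.659. They held 387 of its 454 reads in exo2Δ (85.2%) and 316 of its 406 reads in WT (77.8%). XUT1309, 423 nt long, held 6 reads in exo2Δ and 5 in WT. The other 1037 nt held 61 reads in exo2Δ and 85 in WT. The count of this ncRNA was thus mostly a count of its snoRNAs in both libraries. Among them snoZ3 had most reads (168 in exo2Δ, 144 in WT) and snoZ7 fewest (20 in exo2Δ, 28 in WT), and snoZ5 had 89 in exo2Δ against 48 in WT.

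In SPNCRNA.617, with 51 reads in exo2Δ and 29 in WT, the snoRNA gene snR97 held none in exo2Δ and 1 in WT. Another noncoding transcription unit that shares bases with it on the same strand had 0 reads in exo2Δ and 14 in WT. The next sequence is of an arginine tRNA gene, SPBTRNAARG.05, on the minus strand of chromosome II (chrII:1160893-1160994). Capitals mark the bases that lie inside XUT0245.
SPBTRNAARG.05: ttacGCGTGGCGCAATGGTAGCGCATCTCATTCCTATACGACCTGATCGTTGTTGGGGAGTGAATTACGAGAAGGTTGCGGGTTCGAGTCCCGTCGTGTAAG

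XUT0245 held 88907 reads in exo2Δ and 62887 in WT, and the tRNA gene alone held 88856 in exo2Δ and 62849 in WT. SPNCRNA.1417, which lies inside XUT0245 and starts downstream of the tRNA, held 45 reads in exo2Δ and 38 in WT. Summed over the 581 partner XUTs, reads came to 97915 in exo2Δ and 70643 in WT, and without XUT0245 to 9008 in exo2Δ and 7756 in WT. The XUT takes in the tRNA and the annotated ncRNA does not, and nearly all reads of this XUT lay outside SPNCRNA.1417.

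SPNCRNA.1444 is shown because its 2 ends match those of an XUT, XUT0265, and because no mRNA lies opposite it. It is 322 nt long, on the minus strand of chromosome II, and its first 300 nt (chrII:1557748-1558047) are printed.
SPNCRNA.1444: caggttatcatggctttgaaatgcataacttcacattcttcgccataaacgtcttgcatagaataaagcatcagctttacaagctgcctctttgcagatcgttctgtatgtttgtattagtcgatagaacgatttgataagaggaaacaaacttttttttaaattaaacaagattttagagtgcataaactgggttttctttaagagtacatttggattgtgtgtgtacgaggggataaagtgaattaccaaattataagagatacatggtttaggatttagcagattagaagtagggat

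SPNCRNA.1444 held 81 reads in exo2Δ and 47 in WT, and XUT0265, which adds 12 nt, held the same reads. The tag density in exo2Δ was 1.72-fold that in WT, with an exact 95% interval (Clopper-Pearson) of 1.19 to 2.52. Such intervals here compare 2 libraries and cover counting error only: the reads carry no molecular identifier, and several may stem from 1 molecule.

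SPNCRNA.1616, on the plus strand of chromosome II, was chosen after its values were seen, because most of its WT reads fell outside its XUT. XUT1204 covers 1392 of its 1580 nt. The 108 nt before it (chrII:3572653-3572760) and the 80 nt after it (chrII:3574153-3574232) are the stretches in which the ncRNA and the XUT differ.
SPNCRNA.1616 before XUT1204: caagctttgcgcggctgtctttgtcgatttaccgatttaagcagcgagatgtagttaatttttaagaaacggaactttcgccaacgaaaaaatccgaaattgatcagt
SPNCRNA.1616 after XUT1204: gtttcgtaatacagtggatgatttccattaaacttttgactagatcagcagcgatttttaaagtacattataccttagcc

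SPNCRNA.1616 held 30 reads in exo2Δ and 48 in WT. XUT1204 held 15 reads in exo2Δ against 9 in WT, and the 188 nt outside it 15 in exo2Δ against 39 in WT. Reads inside the XUT were thus more in exo2Δ and reads outside it fewer, in 1 ncRNA.

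**Figure D1:**
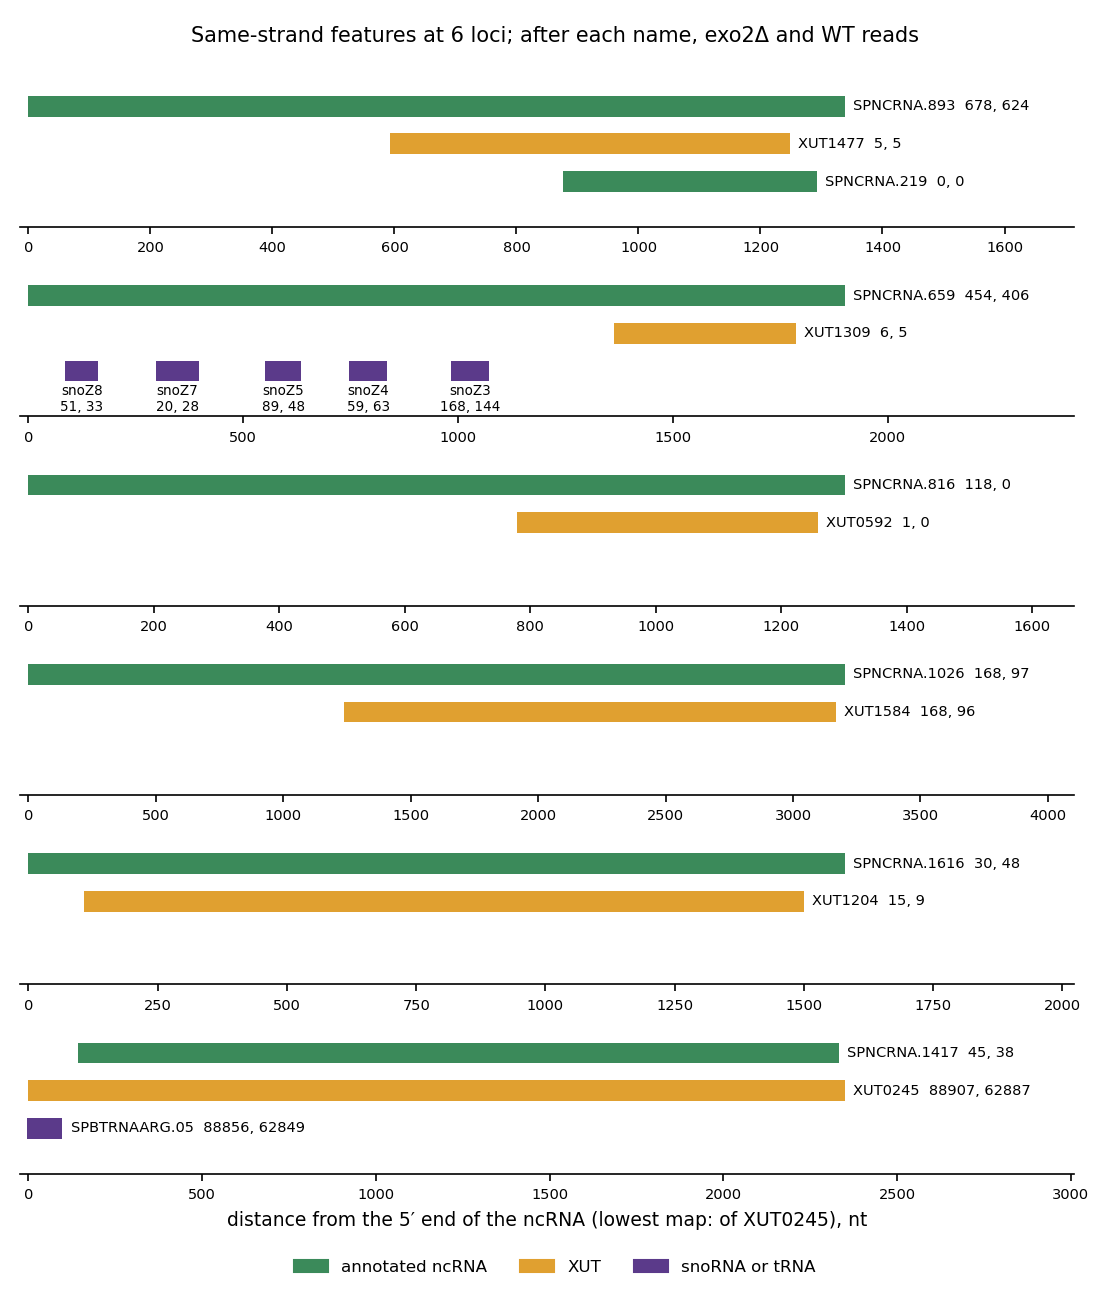
Same-strand features at 6 loci, drawn to scale from the 5′ end of the ncRNA (in the lowest map, of XUT0245), with the exo2Δ reads and then the WT reads after each name. SPNCRNA.893, SPNCRNA.659 and SPNCRNA.816 held nearly all their reads outside the XUT, SPNCRNA.1026 held nearly all of them inside it, and in XUT0245 the tRNA held 88856 of 88907 reads in exo2Δ.

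The deleted gene and the depth were examined next. The 3 coding exons of exo2 held 26 reads in exo2Δ and 251 in WT, the direction the labels give, although reads were still counted there in exo2Δ. Summed over the 9139 features other than coding exons, the exo2Δ library held 13678760 reads and the WT library 13555082. Features overlap, so a read can be in several of them. The XUT-sharing ncRNAs together held 0.0913% of these reads in exo2Δ and 0.0858% in WT. The table counted the strands apart: SPNCRNA.816 lies wholly opposite urh2, and in exo2Δ held 118 reads where urh2 held 37.

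Most of the 561 ncRNAs had few small-RNA reads. In exo2Δ they had 0 to 678 reads, with a median of 10 and quartiles of 4 and 24. In WT they had 0 to 624 reads, with a median of 10 and quartiles of 4 and 22. Both libraries had no read in 9 ncRNAs, and 81 were at or under 3 reads, the limit that a count of 0 allows, in both. The 961 ncRNAs that share no base with an XUT had a median of 3 reads in exo2Δ and 4 in WT. The XUT-sharing ncRNAs were longer, with a median of 1394 nt against 854 nt in the others. Per length the order was the same, with a median density of 0.00694 tags per nt for XUT-sharing ncRNAs and 0.00298 for the others in exo2Δ, and 0.00738 and 0.00474 in WT. Within the XUT-sharing ncRNAs the median density in exo2Δ was 0.00430 tags per nt where under 50% was covered, 0.00851 at 50% to under 100% and 0.0178 at 100%. In WT it was 0.00465, 0.00808 and 0.0173 in the same order. The 31 ncRNAs that lie inside an XUT were the densest of the 3 classes in both libraries.

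The 5 ncRNAs with most reads held 16.3% of all reads of these ncRNAs in exo2Δ and 17.7% in WT, and in 3 of them the XUT was nearly empty. SPNCRNA.893 had 678 reads in exo2Δ and 624 in WT, of which XUT1477, inside it, held 5 in each. A second ncRNA inside it, SPNCRNA.219, held none, so the remaining reads lay in the first 592 nt or the last 47 nt of its 1339 nt. SPNCRNA.659, the ncRNA with the snoRNA genes, was the second of the 3. SPNCRNA.1258 had 260 reads in exo2Δ and 478 in WT, and XUT0134 held 2 and 1 of them. That ncRNA shares 89 nt on its own strand with tpx1, the gene of a peroxiredoxin, which had 483 reads in exo2Δ and 1125 in WT. How many reads lay in the 89 nt is not given by the table, so reads of the mRNA and of the ncRNA cannot be told apart there. In the other two of the 5 the XUT held most of the reads. SPNCRNA.111 (rse1) had 407 reads in exo2Δ and 451 in WT, and XUT0411, which covers 64.1% of it, had 392 in exo2Δ and 424 in WT. SPNCRNA.1626 had 235 reads in exo2Δ and 104 in WT, and lies inside XUT0394, opposite mbx2, the gene of a MADS-box transcription factor with 34 reads in exo2Δ and 64 in WT. It also lies opposite SPBP8B7.32, with 203 reads in exo2Δ and 235 in WT.

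The libraries were then compared. More reads in exo2Δ than in WT were counted for 284 of the 561 ncRNAs, fewer for 229 and equal numbers for 48. Ratios were taken as the log2 of exo2Δ over WT after adding 1 read to each library, at the deposited scaling, for features that averaged 10 reads or more. Of the 561, 297 passed this filter: 246 had at least 10 reads in both libraries, 26 passed with fewer than 10 in WT only and 25 with fewer than 10 in exo2Δ only. Of the 297, 31 were more than 2-fold higher in exo2Δ (10.4%, against 3.97% of all 5945 features that passed) and 27 more than 2-fold lower (9.09%, against 6.91%). Of the 31, 29 had a counting interval that left out equal densities, and of the 27, 17 did. The 31 and the 27 were picked by the ratio of these same counts, so the intervals describe them and test nothing. Only 6 were past 4-fold higher and 2 past 4-fold lower. Features with few reads pass a fold more easily: the median of the mean reads was 26.5 among the 31 and 14.5 among the 27.

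The median log2 ratio of the 297 was 0.10, with 163 above 0 and 134 below. For comparison, all 5945 features had a median of -0.13 and the 4749 mRNAs of -0.15. The sign for the XUT-sharing ncRNAs depends on the scaling, and the median became -0.13 when the sn(o)RNA reads were set equal between the libraries. The difference from other classes does not depend on it. The 260 other ncRNAs that passed had a median of -0.41, with 82 above 0 and 178 below, and 17 of them were past 2-fold higher and 73 past 2-fold lower. Of these 260, 192 had at least 10 reads in both libraries, 15 passed with fewer than 10 in WT only and 53 with fewer than 10 in exo2Δ only. The medians move with the filter. With no filter the XUT-sharing ncRNAs had 0.05 and the other ncRNAs -0.15, and at a minimum mean of 50 reads they had 0.14 and -0.18. The 211 partner XUTs that passed had a median of 0.17, with 29 past 2-fold higher and 6 lower, and the 123 other XUTs that passed also had 0.17, with 20 higher and 19 lower. With 1 library per strain, no error can be given for these differences.

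The ratio was lower where less of the ncRNA was covered. The 62 ncRNAs that were covered under 50% and passed had a median log2 ratio of -0.09, with 5 past 2-fold higher and 9 lower. The 215 covered 50% to under 100% had 0.13, with 23 higher and 16 lower, and the 20 covered fully had 0.14, with 3 higher and 2 lower. With sn(o)RNA reads set equal all 3 medians were below 0, and with the median of mRNAs set equal all 3 were above it. With limits at 25% and 75% instead, the medians were -0.30, 0.02 and 0.21, in order of rising coverage. By position, the 218 that lie opposite an mRNA and not on the strand of one had a median of 0.15 (23 higher, 13 lower), and the 28 that do both had -0.15 (3 higher, 3 lower). The 9 only on the strand of an mRNA had -0.22 (none higher, 2 lower). The 42 with neither had a median of 0.00 (5 higher, 9 lower). The classes differ in coverage and reads, and the part of these in the differences was not tested.

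**Figure D2:**
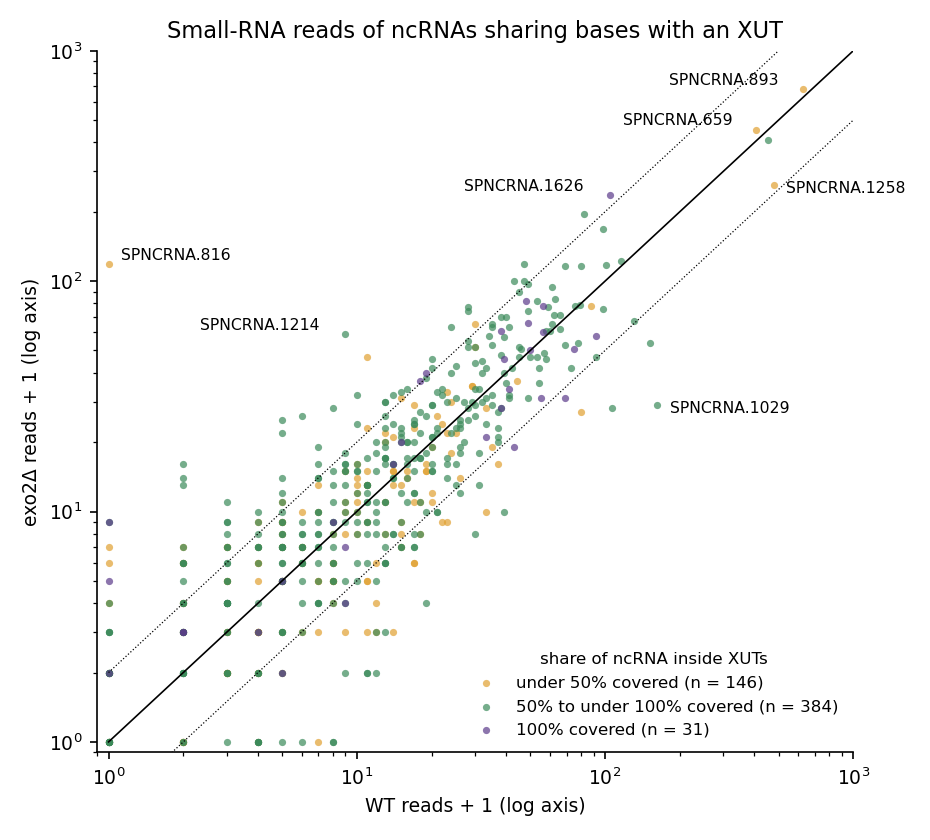
Reads of each of the 561 ncRNAs in exo2Δ (vertical) and WT (horizontal), each with 1 added, on log axes, coloured by the share of the ncRNA inside XUTs. The solid line marks equal reads and the dotted lines a 2-fold difference, and SPNCRNA.816, with 118 reads in exo2Δ and 0 in WT, stands farthest from the line.

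**Figure D3:**
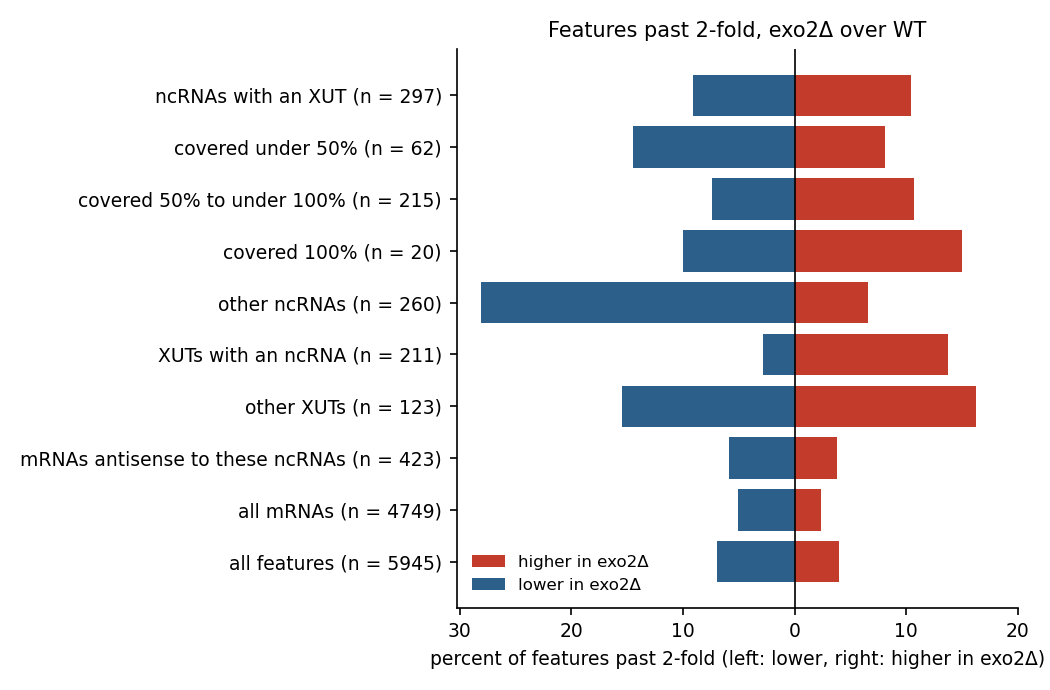
Percent of the features that passed the read filter (n in brackets) that were more than 2-fold higher (right, red) or lower (left, blue) in exo2Δ at the deposited scaling. The ncRNAs with an XUT had 10.4% higher and 9.09% lower, and the other ncRNAs 6.54% higher and 28.1% lower. With the sn(o)RNA reads set equal, 15 ncRNAs with an XUT were higher and 43 lower.

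Where one feature lies wholly inside the other, the reads of the shared and the unshared bases can be separated. This held for 322 ncRNAs with at least 10 reads over both libraries, and for 272 of them no mRNA, tRNA, rRNA, sn(o)RNA or pseudogene lay on the strand. In these 272 the shared bases were 66.4% of the length. They held 77.0% of the reads in exo2Δ and 71.8% in WT. Summed shared reads were 5852 in exo2Δ and 4943 in WT, and the density in exo2Δ was 1.18-fold that in WT (exact 95% interval 1.14 to 1.23). Summed unshared reads were 1744 in exo2Δ and 1940 in WT, 0.897-fold (0.840 to 0.958). The rise of the shared part and the fall of the unshared part each depend on the scaling. With sn(o)RNA reads set equal the log2 ratio of the shared part was -0.0035, and with the median of mRNAs set equal that of the unshared part was -0.0021. The contrast between the 2 summed parts is within each library and free of the scaling.

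The density of the shared bases was 0.0167 tags per nt in exo2Δ, 1.70-fold that of the unshared bases (0.00983). In WT it was 0.0141, 1.29-fold that of the unshared bases (0.0110). These sums rest in part on the 2 pairs with most reads, SPNCRNA.893 with XUT1477 and SPNCRNA.1626 with XUT0394. Without them the shared bases were 2.69-fold denser in exo2Δ and 1.88-fold in WT, and held 84.0% of the reads in exo2Δ and 78.5% in WT. Pair by pair, with no read added, the shared bases were denser in 222 of the 272 in exo2Δ and in 196 in WT. Some unshared stretches were very short and held no read, such as 4 nt in SPNCRNA.1192 and 8 nt in SPNCRNA.1568. In such pairs any read in the shared bases makes them denser, so these counts cannot show an enrichment pair by pair. The median over pairs depends on the reads added to each part. Over all 322 pairs the median log2 of shared over unshared density was 0.55 in exo2Δ and 0.36 in WT with 1 read. It was -0.23 in exo2Δ and -0.40 in WT with 5 reads. With 1 read added to each part, the shared over unshared density was higher in exo2Δ than in WT in 165 of the 272 pairs and lower in 106. In the 50 pairs with another kind of feature on the strand it was higher in 24 and lower in 26. Some pairs had no unshared read in either library, such as SPNCRNA.815, with 64 shared reads in exo2Δ and 34 in WT. For such pairs the comparison is only the library ratio of the shared part, which moves with the scaling. These counts of pairs thus cannot show a contrast between the 2 parts. XUTs were defined on total RNA of the same strains as stretches that rise without Exo2, so that the bases inside them were drawn with the strains already compared. Some ncRNAs share a locus, and their reads enter the sums more than once. The exact intervals of the summed reads treat these as separate reads and are thus too narrow.

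**Figure D4:**
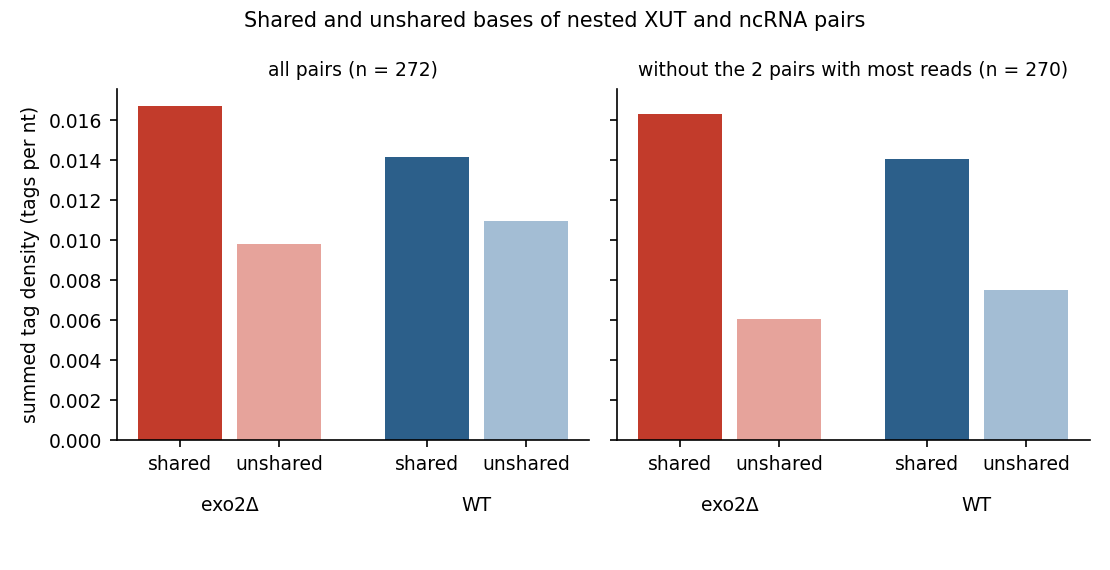
Tag density summed over the shared and the unshared bases of nested pairs with no other kind of gene on the strand, exo2Δ left of WT in each panel. In all 272 pairs the shared bases had 0.0167 tags per nt in exo2Δ and 0.0141 in WT, and leaving out the 2 pairs with most reads lowered the unshared bases to 0.00606 in exo2Δ and 0.00750 in WT.

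Single pairs spanned the whole range from reads only inside the XUT to reads only outside it. SPNCRNA.1026 lies opposite fus1, the gene of the formin of mating cells, and had 168 reads in exo2Δ and 97 in WT. XUT1584, 1928 of its 3205 nt, held all 168 in exo2Δ and 96 of the 97 in WT, so that 1277 nt of the annotated ncRNA were empty but for 1 read. SPNCRNA.1658 had 70 reads in exo2Δ and 65 in WT, and XUT1236 held 69 and 63 of them. The ncRNA and this XUT lie opposite the whole of pdp2, which had 66 reads in exo2Δ and 64 in WT. SPNCRNA.1343 (ncRNA.1343) had 46 reads in exo2Δ and 49 in WT, all inside XUT0988. SPNCRNA.1086 had 46 reads in exo2Δ and 91 in WT, and XUT0776 held 44 and 88 of them. SPNCRNA.74 lies inside XUT0635 and inside a longer ncRNA, SPNCRNA.872. It had 57 reads in exo2Δ and 91 in WT over 783 nt, and the other 1685 nt of the XUT held 9 in exo2Δ and 35 in WT. At the other end stood SPNCRNA.893, SPNCRNA.659, SPNCRNA.1258 and SPNCRNA.816, and also SPNCRNA.834. The last had 64 reads in exo2Δ and 29 in WT, of which XUT1435 held 2 and 6. It shares 97 nt on its own strand with isp6, the gene of a vacuolar protease, which had 415 reads in exo2Δ and 196 in WT. Part of its reads may be counted for both, and the table does not give how many.

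Among the ncRNAs higher in exo2Δ, SPNCRNA.816 had the largest ratio. It had 118 reads in exo2Δ and none in WT, and the exact 95% interval of the fold had a lower limit of 31.4. XUT0592 held 1 of the 118 reads, so the other 117 lay in the 821 nt of the ncRNA outside it. The ncRNA lies wholly opposite urh2, the gene of a uridine ribohydrolase, which had 37 reads in exo2Δ and 62 in WT. The largest rise of the set was thus outside the XUT.

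The next 9 were smaller, and in 7 of them a single XUT had nearly as many reads as the ncRNA, or more. SPNCRNA.1214 lies opposite trm44, the gene of a tRNA methyltransferase, and had 58 reads in exo2Δ and 8 in WT, a density 7.24-fold higher (3.44 to 17.5). XUT0104 held 57 of the 58 reads in exo2Δ and all 8 in WT. SPNCRNA.1697 lies opposite gal1, which encodes galactokinase, and had 24 reads in exo2Δ and 4 in WT, a density 5.99-fold higher (2.06 to 23.7). Its XUT0444, which extends beyond it, had 34 in exo2Δ and 7 in WT. SPNCRNA.1232 had 21 reads in exo2Δ and 4 in WT, all inside XUT0113. SPNCRNA.1179 had 25 in exo2Δ and 5 in WT, of which XUT0077 held 23 and 5. Small numbers leave these folds wide, as the interval of 1.77 to 21.0 for SPNCRNA.1232 shows.

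SPNCRNA.1413 lies opposite cft2, the gene of a subunit of the mRNA cleavage factor, and had 27 reads in exo2Δ and 7 in WT, of which XUT1038 held 24 and 7. SPNCRNA.1045 lies opposite mug95 and the edge of snf21, the gene of the motor of a chromatin remodeller. It had 31 reads in exo2Δ and 9 in WT, and XUT1600 had 30 in exo2Δ and 9 in WT. SPNCRNA.583 had 76 reads in exo2Δ and 27 in WT, a density 2.81-fold higher (1.79 to 4.53). Its XUT0896 had the same read numbers, and SPNCRNA.1217, which shares 2126 nt with it, had 73 in exo2Δ and 27 in WT, and since the 3 features overlap, a read can be counted in each. In the remaining 2 no single XUT did. In SPNCRNA.1425, with 46 reads in exo2Δ and 10 in WT, XUT0252 held 4 and 2. SPNCRNA.875, opposite gcv1 of the glycine cleavage system, had 18 reads in exo2Δ and 6 in WT. Its 3 XUTs, of which XUT0637 reaches beyond it, together had 17 in exo2Δ and 6 in WT.

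Among the ncRNAs lower in exo2Δ, SPNCRNA.1029 had the largest ratio. It had 28 reads in exo2Δ and 161 in WT, 0.174-fold (0.112 to 0.260), and XUT0748, which covers 94.6% of it, had the same read numbers. It lies opposite mug126, which had 10 reads in exo2Δ and 11 in WT. SPNCRNA.1551 had 53 reads in exo2Δ and 151 in WT, 0.350-fold (0.251 to 0.482), and XUT1148 held 49 and 144 of them. It shares 58 nt on its own strand with tfb5, which had 37 reads in exo2Δ and 46 in WT. SPNCRNA.1164 had 27 reads in exo2Δ and 106 in WT, and XUT0857, one of its 2 XUTs, held 18 and 69. In these 3 the XUT itself was lower in exo2Δ, the opposite of the direction in total RNA by which XUTs were defined.

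In the other 7 most of the loss lay outside the XUT, or the XUT had under 15 reads in WT. SPNCRNA.1528 lies opposite tri1 and had 7 reads in exo2Δ and 29 in WT. XUT1127 held 4 reads in each library, and the 466 nt outside it 3 in exo2Δ and 25 in WT. SPNCRNA.992, opposite ric1 and grp1, had 26 reads in exo2Δ and 79 in WT, and outside XUT1553 it had 23 in exo2Δ and 73 in WT. It shares 27 nt on its own strand with ckb1, which had 221 reads in exo2Δ and 227 in WT. SPNCRNA.688 lies opposite vps4, the gene of an endosomal ATPase, and had 9 reads in exo2Δ and 32 in WT, of which 7 and 27 were outside XUT0504. It shares 67 nt on its own strand with ptc3, which had 613 reads in exo2Δ and 574 in WT, so part of those reads may belong to the mRNA. SPNCRNA.1642 had 9 in exo2Δ and 38 in WT, and XUT1220, which reaches beyond it, had 1 in exo2Δ and 6 in WT. SPNCRNA.1089 and SPNCRNA.689 both had 5 reads in exo2Δ and 16 in WT. SPNCRNA.1366 had 3 reads in exo2Δ and 18 in WT, and the mRNA that overlaps it on the other strand, SPBC1685.17, had 14 in exo2Δ and 46 in WT.

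**Figure D5:**
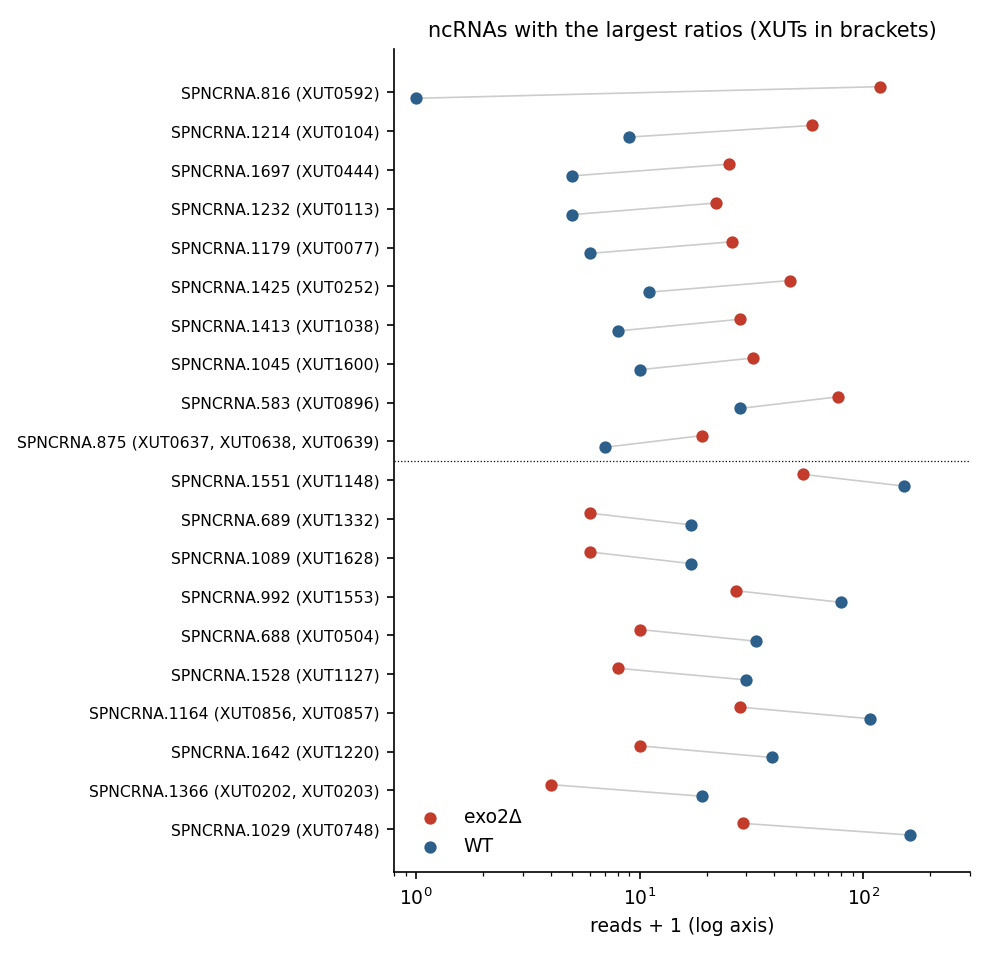
Reads, each with 1 added, in exo2Δ (red, upper point) and WT (blue, lower point) on a log axis for the 10 ncRNAs with the largest ratio in each direction, above and below the dotted line. SPNCRNA.816 had 118 reads in exo2Δ and 0 in WT, and SPNCRNA.1029 had 28 in exo2Δ and 161 in WT.

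The same separation was made for the ncRNAs past 2-fold that enclose their XUTs. The 19 higher ones had 701 shared and 298 unshared reads in exo2Δ, and 261 shared and 72 unshared in WT. In 14 of these 19 the shared part changed by more reads than the unshared part. SPNCRNA.816 alone gave 117 of the 298 unshared reads. The 17 lower ones had 129 shared and 87 unshared reads in exo2Δ, and 360 shared and 274 unshared in WT. In 10 of these 17 the shared part changed by more reads. The shared bases were 75.7% of the length of the higher ncRNAs and 46.1% of that of the lower ones. These pairs were picked by their ratio, so the sums describe them and test nothing.

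Of the 19 ncRNAs with a gene symbol, 8 passed the read filter, and only prl9 was past 2-fold. SPNCRNA.1519 (prl9) had 11 reads in exo2Δ and 25 in WT, 0.439-fold (0.195 to 0.925), and XUT0321 held 11 and 22 of them. SPNCRNA.58 (prl58), another of the polyadenylated RNAs without a long reading frame, had 49 reads in each library. SPNCRNA.1696 (nam3), one of the ncRNAs bound by the RNA-elimination factor Mmi1, had 115 reads in exo2Δ and 68 in WT, 1.69-fold (1.24 to 2.31), and XUT0440 had 118 in exo2Δ and 71 in WT. SPNCRNA.928 (meu16), named for its rise in meiosis, had 15 in exo2Δ and 19 in WT. SPNCRNA.130 (omt3) had 15 in exo2Δ and 13 in WT. With snoZ, rse1 and ncRNA.1343, given above, the named ncRNAs lay on both sides of equal reads.

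The 3 ncRNAs whose ends match those of an XUT and that passed the filter were SPNCRNA.1444, given above, SPNCRNA.645 and SPNCRNA.1568. SPNCRNA.645 had 36 reads in exo2Δ and 17 in WT, 2.11-fold (1.16 to 4.01), and XUT0477 had 36 in exo2Δ and 18 in WT. SPNCRNA.1568, opposite yml6, the gene of a mitochondrial ribosomal protein, had 41 reads in each library, as had XUT1166. One of the 3 was past 2-fold and one showed no difference in reads.

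The mRNAs opposite the ncRNAs were the other genes examined. Of 475 such mRNAs 423 passed the filter, with a median log2 ratio of -0.20, and 16 were past 2-fold higher and 25 past 2-fold lower. The 4272 mRNAs that passed with no such ncRNA on either strand had a median of -0.15, with 96 higher and 211 lower. Of the 65 mRNAs that share bases with such an ncRNA on the same strand 61 passed, with a median of -0.05 and 3 higher and 4 lower. Opposite the 31 ncRNAs higher in exo2Δ lay 27 mRNAs that passed, 7 above 0 and 20 below, with a median of -0.23. Opposite the 27 lower ncRNAs lay 17, with 7 above 0 and 10 below, and a median of -0.07. The median of all mRNAs was itself -0.15.

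Among these 44 partners, 5 were past 2-fold and are named after their values were seen. The eno102 mRNA, of an enolase, had 35 reads in exo2Δ and 2 in WT, a density 17.5-fold higher (4.49 to 149.9), opposite SPNCRNA.1302 with 41 in exo2Δ and 19 in WT. The gto1 mRNA had 168 in exo2Δ and 51 in WT, opposite SPNCRNA.1087 with 62 in exo2Δ and 23 in WT. At these 2 loci both strands had more reads in exo2Δ. The cbh1 mRNA had 69 in exo2Δ and 159 in WT and the psu2 mRNA 20 in exo2Δ and 49 in WT, opposite ncRNAs that were higher in exo2Δ (SPNCRNA.990 with 23 reads in exo2Δ and 9 in WT, SPNCRNA.1601 with 29 in exo2Δ and 12 in WT). The fifth was SPBC1685.17, opposite SPNCRNA.1366, where both strands had fewer reads in exo2Δ.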

How the data were processed

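The authors purified RNAs of 10 to 40 nt, trimmed adapters and kept uniquely mapping reads (build ASM294v2, per the submitters' processing notes) from Bowtie with up to 3 mismatches. They deposited a signal, the tag density in tags per nt, for each annotated feature and each of 2 libraries. The 10204 coding exons among the 19343 entries were left out, since they lie inside genes.

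Density times length was a whole number in 100% of WT values and a whole multiple of 0.998 in 100% of exo2Δ values (tolerance 0.001), which gave the reads. Ratios used a pseudocount of 1 read and a minimum mean of 10 reads, and understate changes of features with few reads. Nested reads are those of the outer feature minus those of the inner one. Fold intervals are exact Clopper-Pearson 95% intervals of counting error.

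Python 3.11.15, numpy 2.4.6, pandas 2.3.3, scipy 1.17.1 and matplotlib 3.10.9 were used, and the steps were tested on simulated data. Of the 561 ncRNAs, 527 are named in the RefSeq annotation of ASM294v3, 524 of them with the ends of the table. Only those with equal ends were used for sequence.

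Named ncRNAs were the 5 with most reads, the 10 with the largest ratio in each direction, those with a symbol or with matching ends (all with a minimum mean of 10 reads), and of nested pairs with at least 50 reads the 5 with the largest and the 5 with the smallest shared over unshared density in exo2Δ, with their partners. The rule for members uses positions alone, but it and the lists were chosen with earlier results of these data known. Alternatives changed the scaling, the pseudocount, the filter, the overlap, the coverage limits and the ncRNAs or pairs included.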

Additional observations from a re-analysis of the deposited data

How the results depend on the processing

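With 1 library per strain nothing below has a replicate error, and differences under counting error cannot be seen at this depth. No paired analysis was possible because the labels give a single library for either strain. Of 93 values under alternatives, 57 stayed within the counting or rank interval of the value reported (or within 1.5 times, for counts), 28 moved and 8 changed sign. The cause was not tested beyond what each alternative changes by construction.

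With sn(o)RNA reads set equal (a shift of -0.24 in log2), the median log2 ratio of the XUT-sharing ncRNAs was -0.13, that of other ncRNAs -0.64, the summed ratio -0.14, the coverage classes -0.31, -0.10 and -0.090, and 15 ncRNAs were past 2-fold higher and 43 lower. With the mRNA median set to 0 (a shift of 0.15), the median was 0.25, the summed ratio 0.25 and the least covered class 0.059, against -0.09 as reported, and 41 were higher and 20 lower. A pseudocount of 5 reads left 19 higher and 16 lower. No filter gave 67 and 72, and other ncRNAs -0.15. A mean of at least 50 reads gave 8 and 4, and other ncRNAs -0.18. A 4-fold limit gave 6 and 2. The summed ratio was 0.15 with at least 50% of the ncRNA shared and 0.17 with no other kind of feature on the strand, against 0.10. Limits at 25% and 75% gave -0.30 and 0.015 in the low and middle classes.

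The median log2 of shared over unshared density in nested pairs was 0.55 in exo2Δ and 0.36 in WT. It was 0.81 in exo2Δ and 0.64 in WT with at least 50 reads, 1.71 and 1.34 with a pseudocount of 0.1 reads, and -0.23 and -0.40 with 5 reads, since a read added to a short stretch weighs more. The sums are free of it. Chosen after seeing the data, leaving out the 2 pairs with most reads gave -0.31 for the unshared sum, against -0.16. Other scalings of the sums, also chosen after seeing the data, gave -0.0035 (sn(o)RNA) and 0.40 (mRNA) for the shared part, and -0.40 and -0.0021 for the unshared part. One ncRNA per locus, likewise added, gave a median of 0.10, with 29 higher and 22 lower.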
